A study of Mus musculus with 6 samples.

Results

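The cytosolic ribosomal protein genes of IL4-treated mouse macrophages were compared across 6 libraries, 1 for IL4 alone and 1 for IL4 with each of 5 compounds. Members were taken by gene symbol, as the regular Rpl and Rps names, Rplp0 to Rplp2 and Rpsa. Names of pseudogenes and of the Rps6 kinases were left out. Of 84 such symbols, 80 had at least 1 CPM, the count scaled to library size, in at least 1 library, out of 11898 genes that passed this filter and 16775 in the tables. The 80 members are 32 genes of the small (40S) subunit and 48 of the large (60S) subunit, the latter with the 3 stalk genes. Of the 4 symbols below the filter, Rpl10l had counts of 11, 0, 1, 0, 0 and 10 in the libraries of IL4, fatostatin, betulin, 25-HC, PF429424 and 1,10-Phen, an order kept below. Rpl39l had 3 to 10 counts and Rpl3l 8 to 16, and Rpl32l is likewise below the filter.

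The cells were bone-marrow-derived macrophages of C57BL/6 mice, cultured for 5 days with 10 ng/ml M-CSF and then treated for 24 hours. Every group, the control included, received IL4, the cytokine of alternative macrophage activation, and no library without IL4 is among them. In the other 5 groups, IL4 was combined with 1 compound each, namely 25-HC, betulin, fatostatin, 1,10-Phen or PF429424. The labels state no dose for them. Fatostatin and betulin are known as inhibitors of the activation of SREBP, the sterol-sensing transcription factor named in the series' title. Naming them sets no contrast with 25-HC, PF429424 and 1,10-Phen, whose action on SREBP is not described here. With 1 library per treatment there is no replicate spread and no test. Each difference below is between 2 libraries, and its 95% interval (exact Clopper-Pearson) covers counting error only.

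Ribosomal proteins and ribosomal RNA form the particle that translates mRNA. The 40S subunit reads the message, and the 60S subunit joins amino acids and carries the stalk that recruits elongation factors. Cells make the proteins in near-equal amounts, and their mRNAs are among the most abundant of any cell. Most of these mRNAs begin with a C followed by a run of pyrimidines, the terminal oligopyrimidine (TOP) tract, through which mTORC1 and the RNA-binding protein Larp1 control their translation and stability. A few members have a paralog that can take their place in the ribosome, such as Rpl22l1 for Rpl22, whose protein is known to bind the Rpl22l1 transcript and lower its level.

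Library totals lay between 20181396 and 21169667 counts, and 3 counts, the limit that a count of 0 allows, equal 0.142 to 0.149 CPM of a library's total. Summed over 12 macrophage markers, the level was 10755 to 16788 CPM, lowest with 25-HC and next lowest with 1,10-Phen. Neutrophil markers (13 genes, 12 above the filter) summed to 468 to 913 CPM, lowest with PF429424 and fatostatin. Stromal markers summed to 47.3 to 132 CPM, mast cell or basophil markers to 3.77 to 21.5, T cell markers to 6.43 to 9.84, B cell markers to 1.08 to 5.402, dendritic cell markers to 3.27 to 4.38 and erythroid markers to 0.376 to 0.563. None of the markers in the tables was at 0 in all 6 libraries, although no erythroid marker passed the filter. The part of these markers in the results below was not tested. In bulk RNA, fewer cells of a type and less RNA per cell cannot be told apart.

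RefSeq start windows (GRCm38.p6, 5′ to 3′ on the coding strand) were found for 60 of the 80 members, 71 windows in all. Those of 9 genes on which the results turn are shown, to let the reader see which carry a TOP-like tract. The first 20 bases of each lie before the annotated start and the other 20 from it on, and capitals mark runs of a C and at least 6 further C or T. The annotated start of a gene model need not be the base where most transcripts begin.
Rpl22l1, chr3:28805488-28805527, plus strand: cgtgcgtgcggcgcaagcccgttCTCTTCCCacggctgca
Rps27, chr3:90213629-90213668, minus strand: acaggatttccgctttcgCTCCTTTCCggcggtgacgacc
Rpl38, chr11:114668560-114668599, plus strand: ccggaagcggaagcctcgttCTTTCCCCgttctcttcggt
Rpl39, chrX:37085203-37085242, minus strand: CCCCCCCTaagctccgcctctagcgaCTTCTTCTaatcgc
Rps10, chr17:27635225-27635264, minus strand: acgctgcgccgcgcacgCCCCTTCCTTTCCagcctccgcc
Rpl28, chr7:4792945-4792984, plus strand: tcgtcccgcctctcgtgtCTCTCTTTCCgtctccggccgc
Rplp0, chr5:115559447-115559486, plus strand: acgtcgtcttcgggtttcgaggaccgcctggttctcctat
Rps3, chr7:99483690-99483729, minus strand: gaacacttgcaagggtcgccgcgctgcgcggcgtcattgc
Rpl7l1, chr17:46782637-46782676, minus strand: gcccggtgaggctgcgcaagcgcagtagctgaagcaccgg

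The first 6 windows hold a tract and the last 3 hold none. On the coding strand, such a tract lay within 20 bases of a start in 34 of the 60 members (56.7%), against 23.2% of the 9574 genes compared that have a window. A C and 4 C or T at the annotated start itself were found in 13 members (21.7%) and in 2.89% of all genes. In the whole windows, from 250 bases before to 50 after the start and on both strands, CCGGAA, the core letters of ETS-family sites, occurred in 34 members (56.7%) and in 32.2% of all genes. ACGTG, letters that E-boxes and ATF sites share, occurred in 20 members (33.3%) and in 29.6%. CCGGAA can share a base with ACGTG, and the letters TTCC of its other strand can lie in a tract. A match describes the window only. Rpl3, Rpl29, Rpl36 and Rps20 are among the members for which no window is shown.

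With IL4 alone, the members took 3.05% of all counts (95% interval 3.04 to 3.06%) and 9.08% of the summed FPKM, the deposited value per transcript length and library size. Per length, their levels ran from 13.2 FPKM for Rps6 to 1258 FPKM for the stalk gene Rplp1, with a median of 508. Next to Rplp1 stood Rpl41 (1164 FPKM), Rps2 (1133) and Rpl10 (1108). In all, 68 members had at least 200 FPKM. The 5 members under 50 FPKM were Rps6, Rpl7l1 (36.3), Rps15a (43.2), Rpl29 (45.2) and Rpl22l1 (49.7). Rps6 encodes the subunit protein that S6 kinases phosphorylate, and its counts were 369, 313, 439, 304, 449 and 381. Its counts were not whole numbers in any library, as happens where reads are shared out between similar sequences, so its level may differ from that of the gene. The low FPKM of Rps15a comes with an effective length of 5190 bases, against a median of 673 over members, and with 4518 counts.

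Across the 6 libraries the members kept close together. The ratio of the highest to the lowest library had a median of 1.36 over members. Over all genes compared, which include genes with low counts, it was 1.64. It was under 1.5 for 62 members, and the share of all genes on either side of such limits was not counted. It reached 2 in 3 members: Rpl22l1 (6.27), Rpl3 (2.92) and Rpl39 (2.13). In each of the 5 comparisons with IL4, the interquartile range of the members was narrower than that of all genes. With 25-HC, for example, this range of the log2 ratios was 0.19 for members and 0.61 for all genes, and with 1,10-Phen it was 0.26 and 0.85. Over the 4048 genes with at least 50 CPM in the IL4 library, which exclude the low counts, it was 0.49 and 0.70. With fatostatin the range was 0.14 for members and 0.20 for these 4048 genes, so the contrast was smaller there.

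**Figure D1:**
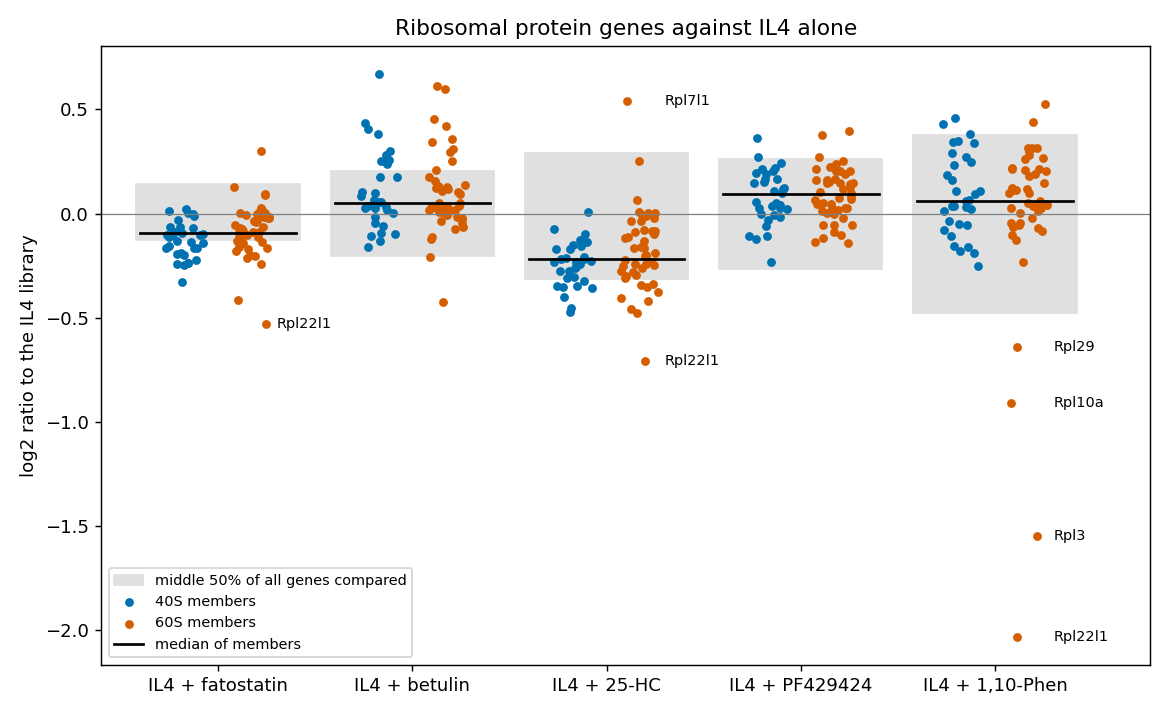
Log2 ratio of each of the 80 members to the IL4 library (vertical axis) in the 5 compound libraries (horizontal axis), with 40S members in blue, 60S members in orange, black lines at the members' medians and grey boxes over the middle 50% of all 11898 genes compared. With 25-HC nearly all members lie below 0 (median -0.22), and with 1,10-Phen Rpl22l1, Rpl3, Rpl10a and Rpl29 lie far below the rest.

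The share of counts taken by the members was lowest with 25-HC, at 2.62% (2.62 to 2.63%). It was 2.77% with fatostatin and with 1,10-Phen, 2.95% with PF429424 and 3.04% with betulin. Both subunits followed this order at its low end: 25-HC had 1.05% in 40S and 1.57% in 60S genes, against 1.26% and 1.79% with IL4 alone. As a share of the summed FPKM the values were 8.22% with fatostatin, 8.93% with betulin, 7.96% with 25-HC, 8.56% with PF429424 and 7.85% with 1,10-Phen, so that 1,10-Phen was then the lowest. A share also falls when other transcripts grow, and the ratios below are therefore scaled by TMM factors, which take most genes as unchanged.

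**Figure D2:**
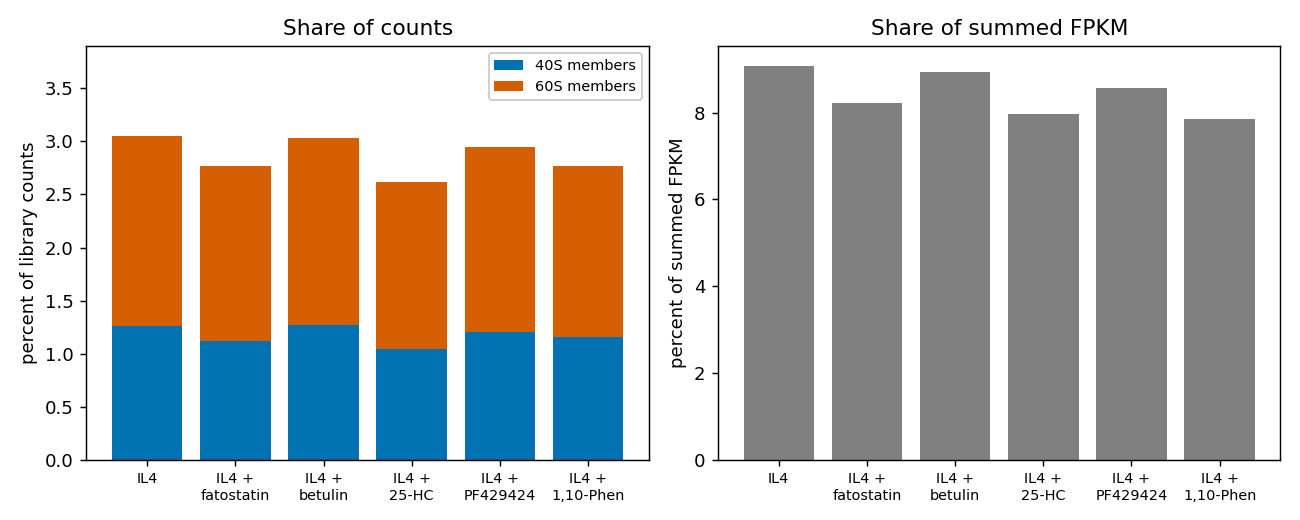
Percent of each library's counts (left, 40S members in blue and 60S members in orange) and percent of its summed FPKM (right) taken by the 80 members. IL4 alone has the highest share in both panels (3.05% and 9.08%), and the lowest is 25-HC for counts (2.62%) and 1,10-Phen for FPKM (7.85%).

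With 25-HC, ribosomal protein transcripts were lower across the family by a small amount. The median log2 ratio to IL4 was -0.22 over members and 0.01 over all genes, and 73 of the 80 lay below 0, against 49.3% of all genes. At least 1.2-fold lower with an interval that excluded no change, the rule for a call here, were 26 members (32.5%), against 23.8% of all genes, so the share of calls stood only modestly above the background. One member, Rpl7l1, was called higher, against 24.4% of all genes. No member reached 2-fold in either direction, against 3.27% of all genes that were called 2-fold higher and 5.69% that were called 2-fold lower. The 40S median was -0.23 and the 60S median -0.19. Of the 80 members 60 had their lowest level of the 6 libraries with 25-HC, where 16% of all genes had theirs.

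The lowest members with 25-HC were Rpl22l1, Rpl39, Rps20 and Rpl32. Rpl39, a small protein that lines the exit tunnel, had counts of 2674, 1983, 4060, 1962, 2621 and 2700, lowest with 25-HC and fatostatin and highest with betulin. Its log2 ratio with 25-HC was -0.48 (-0.56 to -0.39). Rps20, a protein of the 40S head, had 5045, 3983, 4812, 3714, 4666 and 4070 counts and a log2 ratio of -0.47 (-0.54 to -0.41). Rpl32 had 8462, 7263, 7775, 6297, 8430 and 8554 counts and a log2 ratio of -0.46 (-0.51 to -0.41), so that 25-HC was the lowest library for it too. Rps19, whose loss causes Diamond-Blackfan anaemia, stood at -0.35 with 5763 counts in IL4 and 4621 with 25-HC. Rpl11, which with Rpl5 and the 5S RNA binds Mdm2, stood at -0.34. Rpl5 itself was at -0.04 (-0.07 to 0.00), so these partners did not have the same ratio. The counts of both were not whole in any library, so reads shared with similar sequences may affect either ratio.

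The other 7 members lay above 0 with 25-HC, against 50.7% of all genes. Rpl7l1, a paralog of Rpl7 that acts in pre-ribosomes, had 1916, 2072, 2437, 2848, 2189 and 1554 counts, highest with 25-HC and lowest, after scaling, with 1,10-Phen. Its log2 ratio with 25-HC was 0.54 (0.46 to 0.62), while Rpl7 was at -0.11. Rpl36 was at 0.25 (0.15 to 0.35), below the 1.2-fold rule, Rpl4 at 0.07 and Rps3 at 0.01. Of the proteins of the ribosome that carry other names, Fau, a fusion with eS30, was at -0.26 and Rack1, a 40S scaffold protein, at -0.10.

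With 1,10-Phen, a few 60S genes lay far below the rest of the family. The counts of Rpl3, whose protein lies near the peptidyl transferase centre, were 12119, 11403, 11738, 10008, 10787 and 3606. The 1,10-Phen library stood far below the other 5, which lay within 10008 to 12119. Its log2 ratio was -1.55 (-1.60 to -1.49), or 2.92-fold lower. Rpl10a, a protein of the L1 stalk, had 7883, 7680, 7921, 6319, 7175 and 3648 counts and a log2 ratio of -0.91 (-0.97 to -0.85). Rpl22l1 had 476, 326, 716, 297, 433 and 100 counts and a log2 ratio of -2.03 (-2.38 to -1.74), or 4.08-fold lower. Rpl29 had 691, 730, 511, 606, 593 and 385 counts and a log2 ratio of -0.64 (-0.83 to -0.46). These were the 4 members called lower (5% of the 80), against 31.3% of all genes. Rpl22l1 and Rpl3 were also 2-fold lower, against 11.8% of all genes. None of the 4 is a 40S gene, and Rpl29 rests on counts that were not whole in any library, while those of the other 3 were whole.

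**Figure D3:**
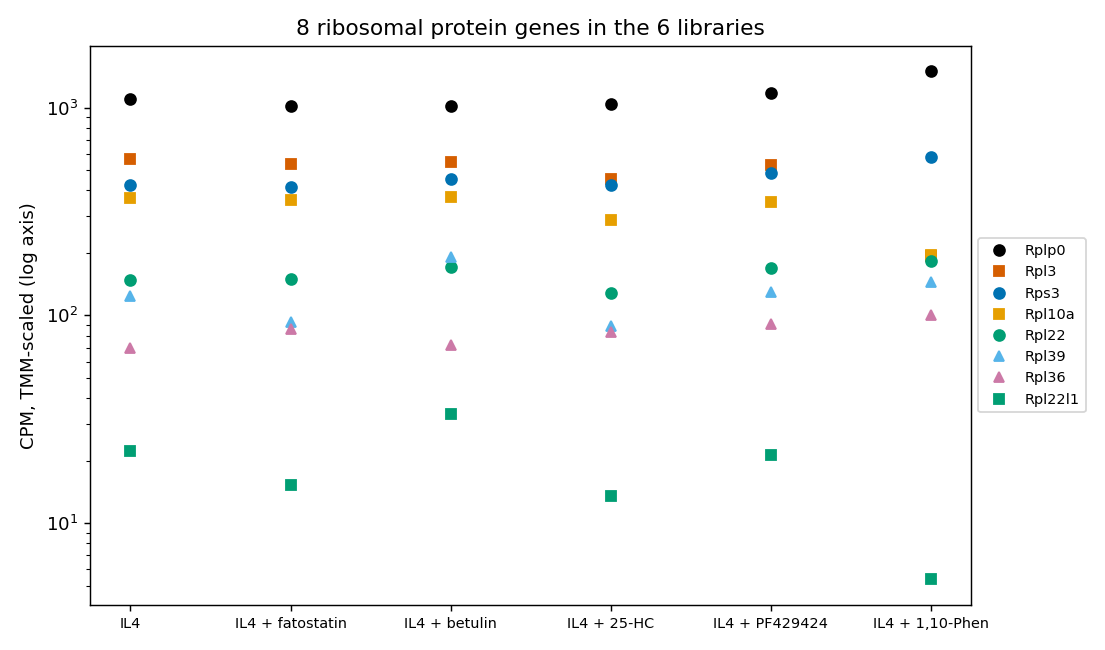
TMM-scaled CPM (vertical log axis) of 8 ribosomal protein genes in the 6 libraries (horizontal axis), 1 point per library. With 1,10-Phen, Rpl3 (193 CPM against 564 with IL4), Rpl10a (195 against 367) and Rpl22l1 (5.4 against 22.2) are at their lowest, while Rplp0 and Rps3 are at their highest.

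Other members were higher with 1,10-Phen. Rplp0, the stalk protein that anchors Rplp1 and Rplp2, had 23679, 21686, 21636, 22765, 24032 and 27948 counts, highest with 1,10-Phen, and a log2 ratio of 0.44 (0.42 to 0.47). Its partners had other ratios: Rplp1 was at 0.01, with 9791 counts, and Rplp2 at -0.04, with 4312. Rps3, at the mRNA entry site, had 9094, 8825, 9677, 9342, 9854 and 10864 counts and a log2 ratio of 0.46 (0.42 to 0.50). Rps10 was at 0.43 (0.38 to 0.48) and Rpl36 at 0.52 (0.43 to 0.62). Called higher were 16 members (20%), 8 of each subunit, against 28.8% of all genes, and no member was 2-fold higher, against 7.59% of all genes. The median over members was 0.06, with -0.02 over all genes, and 56 members lay above 0 and 24 below, where 49.1% and 50.9% of all genes did. For 31 members 1,10-Phen was the highest library, against 30.5% of all genes, and for 6 the lowest, against 34.4%.

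The direction of the family's median with 1,10-Phen depends on the scaling. With library totals alone it was -0.18, with 24 members called lower and 1 higher, and the median of all genes was then -0.25. The share of all genes called was not counted under library totals, so these counts are no result about the family. The distance of the members from all genes was 0.07 under TMM, DESeq2 size factors and library totals. That agreement was fixed in advance, because a change of scaling shifts the log2 ratios of all genes almost alike. Rpl3 and Rpl10a remained low under library totals, at -1.79 and -1.15, and Rplp0 and Rps3 remained above 0, at 0.20 and 0.22. Rpl39, at 0.22 under TMM, was at -0.03 under library totals.

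With betulin, Rps27, Rpl39 and Rpl22l1 had the highest ratios. Rps27, a small zinc-finger protein of the 40S subunit, had 3428, 3231, 5418, 3160, 3014 and 3023 counts. Betulin stood above the other 5 libraries, and its log2 ratio was 0.67 (0.61 to 0.73). Rpl39 followed at 0.61 (0.54 to 0.68), Rpl22l1 at 0.60 (0.43 to 0.77) and Rpl36a at 0.45 (0.38 to 0.52). In all, 14 members (17.5%) were called higher, against 16.2% of all genes: the others were Rpl27, Rpl30, Rpl34, Rpl38, Rpl7l1, Rps15a, Rps23, Rps27a, Rps27l and Rps29. That share is close to the background and is not a result about the family as a whole. Rpl29 alone was called lower, at -0.42 (-0.59 to -0.26), against 15.9% of all genes, and no member was called 2-fold higher or lower, against 1.91% and 2.29% of all genes.

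The median over members with betulin was 0.05, with 0.01 over all genes, and 60 members lay above 0, where 50.8% of all genes did. Under library totals the median was -0.01. For 24 members betulin was the highest library, against 9.25% of all genes. The 14 members called higher had a median effective length of 483 bases, and the 65 with no call one of 716. Across the 80 members, the Spearman correlation of the log2 ratio with effective length was -0.36, and across 10877 genes it was -0.21. These are correlations across genes of the same 2 libraries, which are not independent, and length as a source of the difference was not tested. The 40 shorter members had a median of 0.12 and the 40 longer ones a median of 0.02. In the other comparisons the correlation was between -0.02 and 0.17 over members and between -0.17 and 0.07 over the 10877 genes. Members called higher with PF429424 were also shorter than those with no call (380 against 686 bases), as were those called lower with 25-HC (582 against 706) and fatostatin (471 against 693.5). With 1,10-Phen those called higher (708) and lower (793) were longer than those with no call (657). With betulin the exceptions were in both directions. Rps15a, Rpl7l1, Rpl27 and Rps27a are longer than the median member and were called higher. Rpl28 is short (473 bases) and stood at -0.21.

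**Figure D4:**
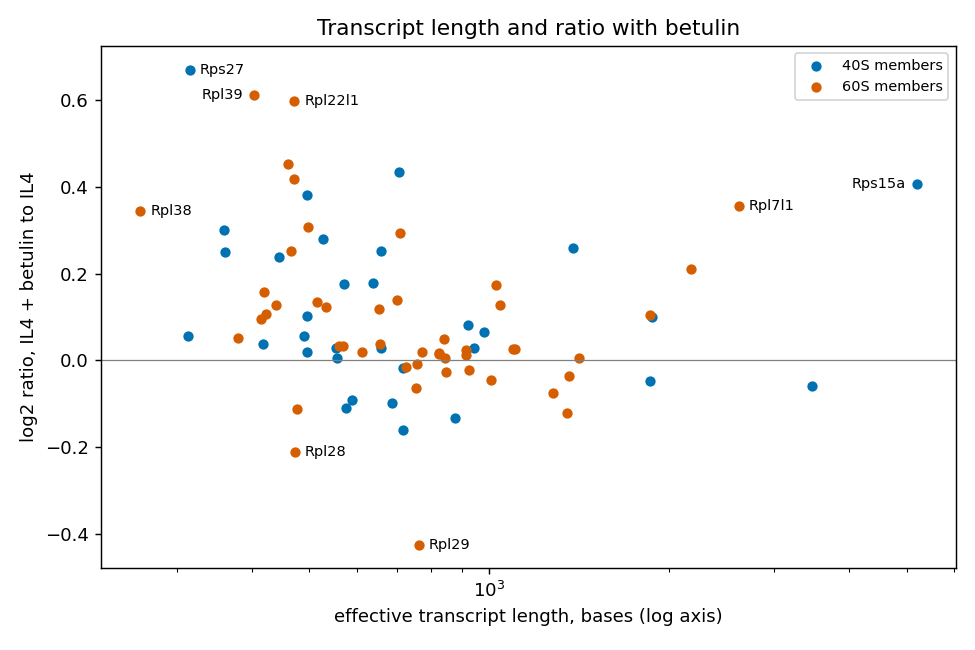
Log2 ratio of each member between the betulin and IL4 libraries (vertical axis) against its effective transcript length in bases (horizontal log axis), with 40S members in blue and 60S members in orange. Rps27 (0.67) and Rpl39 (0.61), at the top, are among the shorter transcripts, and most members longer than the median of 673 bases lie near 0.

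With fatostatin, the members were slightly lower than in the IL4 library. The median was -0.09, with 0.01 over all genes, and 66 members lay below 0, where 48% of all genes did. Rpl22l1 (-0.53, -0.74 to -0.32), Rpl39 (-0.42, -0.50 to -0.33) and Rps20 (-0.33, -0.39 to -0.27) were called lower (3.75% of members), against 8.64% of all genes. Rpl36, a 60S protein, was called higher at 0.30 (0.20 to 0.40), against 8.44% of all genes. No member was called 2-fold higher or lower, against 0.874% and 1.06% of all genes. The 40S median was -0.12 and the 60S median -0.07.

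With PF429424, the members were slightly higher after scaling. The median was 0.09, with 0.02 over all genes, and 61 members lay above 0, where 52.3% of all genes did. Under library totals the median of all genes was -0.11 and that of members -0.05, so that the sign of the members' median follows the scaling. The members' distance from all genes (0.07) hardly can change, because a change of scaling shifts all genes almost alike. Rpl38, a 60S protein known for its part in translating Hox mRNAs, had 2205, 2188, 2780, 2126, 2742 and 1811 counts, highest with PF429424 and betulin. Its log2 ratio with PF429424 was 0.39 (0.31 to 0.48). Rpl36 (0.38), Rps6 (0.36), Rpl7l1 (0.27) and Rps28 (0.27) were the other members called higher, 5 in all (6.25%), against 21.8% of all genes. Under library totals 0 members were called higher and 3 lower, with no share of all genes counted for that scaling. Rps28 is named for completeness of the count of 5. None was called lower, against 20.7% of all genes, and Rps19 was the lowest, at -0.23 (-0.29 to -0.17). No member was called 2-fold higher or lower, against 2.49% and 5.63% of all genes.

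Rpl36 was the 1 member with its lowest level in the IL4 library, against 17.7% of all genes. Its counts were 1498, 1824, 1542, 1824, 1842 and 1875, so that fatostatin, 25-HC, PF429424 and 1,10-Phen lay above IL4 and betulin next to it, at 0.05 (-0.05 to 0.16). All 5 ratios share that 1 IL4 library, so a low value in it would appear in each of them. With IL4 alone 5 members had their highest level, Rpl28, Rpl3 and Rps20 among them, against 17.3% of all genes. Rplp0 had its lowest level with betulin, where 9.46% of all genes had theirs, and 12 members had it with fatostatin, against 10.4%.

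The paralog pairs had unequal levels. Per length, Rpl22 had 72.3, 70.7, 79.9, 61.1, 75.1 and 76.2 FPKM, and Rpl22l1 had 49.7, 34.0, 73.0, 30.4, 43.1 and 10.1. Rpl22l1 was thus 68.8% of Rpl22 with IL4 alone, 91.4% with betulin, 48.0% with fatostatin, 49.7% with 25-HC, 57.4% with PF429424 and 13.2% with 1,10-Phen. In TMM-scaled CPM, Rpl22 stayed within 1.43-fold across libraries, and the pair's balance therefore moved mainly through Rpl22l1. With 1,10-Phen, Rpl22 was itself 1 of the 16 members called higher, at 0.31 (0.24 to 0.38). Rps27l was 27.7% of Rps27 with IL4 alone and 22.7 to 30.3% in the others. Rpl7l1 was 6.76% of Rpl7 with IL4 alone, 10.6% with 25-HC and 5.56% with 1,10-Phen. The paralogs known from testis and muscle were hardly detected: Rpl10l, Rpl39l and Rpl3l were each under 1 FPKM with IL4 alone, against 1108, 328 and 443 FPKM for Rpl10, Rpl39 and Rpl3.

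Reads of ribosomal protein genes can be split among near-identical copies, since processed pseudogenes are common. Of the 80 members, 35 had a count that was not whole in at least 1 library and 22 in all 6, while 45 had whole counts throughout. Rpl39, Rps20, Rps27, Rpl7l1 and Rps15a belong to the 22, and Rpl3, Rpl10a, Rpl22l1, Rplp0, Rps10 and Rpl36 to the 45. Over the 45 alone, the median was -0.23 with 25-HC, 0.07 with 1,10-Phen, 0.03 with betulin, 0.05 with PF429424 and -0.10 with fatostatin. The calls with 25-HC among them were 14 lower and 0 higher, against 23.8% and 24.4% of all genes. Rps27rt, a copy of Rps27, had 820, 350, 940, 591, 1314 and 1507 counts, and its log2 ratio was -1.21 with fatostatin and 1.08 with 1,10-Phen. The sum of Rps27 and Rps27rt was at 0.59 (0.54 to 0.65) with betulin and at 0.29 with 1,10-Phen, where Rps27 alone was at 0.02. Rpl37 and its copy Rpl37rt together were at 0.24 with 1,10-Phen, where Rpl37 alone was at -0.23, so that the direction for Rpl37 depends on the copy. With PF429424 the signs also differed, at -0.11 for Rps27 alone and 0.11 for the sum, and at -0.14 for Rpl37 alone and 0.19 for the sum. With betulin Rpl37 was at -0.03 alone and 0.22 summed. With 25-HC both sums remained below 0, at -0.21 and -0.31. Rpl31 was at -0.29 with 25-HC alone and -0.28 with its copy Rpl31-ps12.

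The genes that build and serve the ribosome had their own pattern. With 25-HC, the median of 45 ribosome assembly factors was 0.61, and 38 of them were called higher and 0 lower, against 24.4% and 23.8% of all genes. Rrp12, which exports pre-ribosomes, had 461 counts with IL4 and 933 with 25-HC (0.98), and Tsr1, a factor of late 40S maturation, 932 and 1844 (0.95). RNA polymerase I and its factors, which make the ribosomal RNA precursor, had a median of 0.38, with 9 of 15 called higher and 0 lower against the same 24.4% and 23.8%, and Polr1a, the largest subunit, stood at 0.71. Translation initiation factors had a median of 0.32, with 18 of 34 called higher and 0 lower, again against 24.4% and 23.8%. So the ribosomal protein genes were lower in the library in which these 3 lists were higher, and this is a description of 2 libraries.

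**Figure D5:**
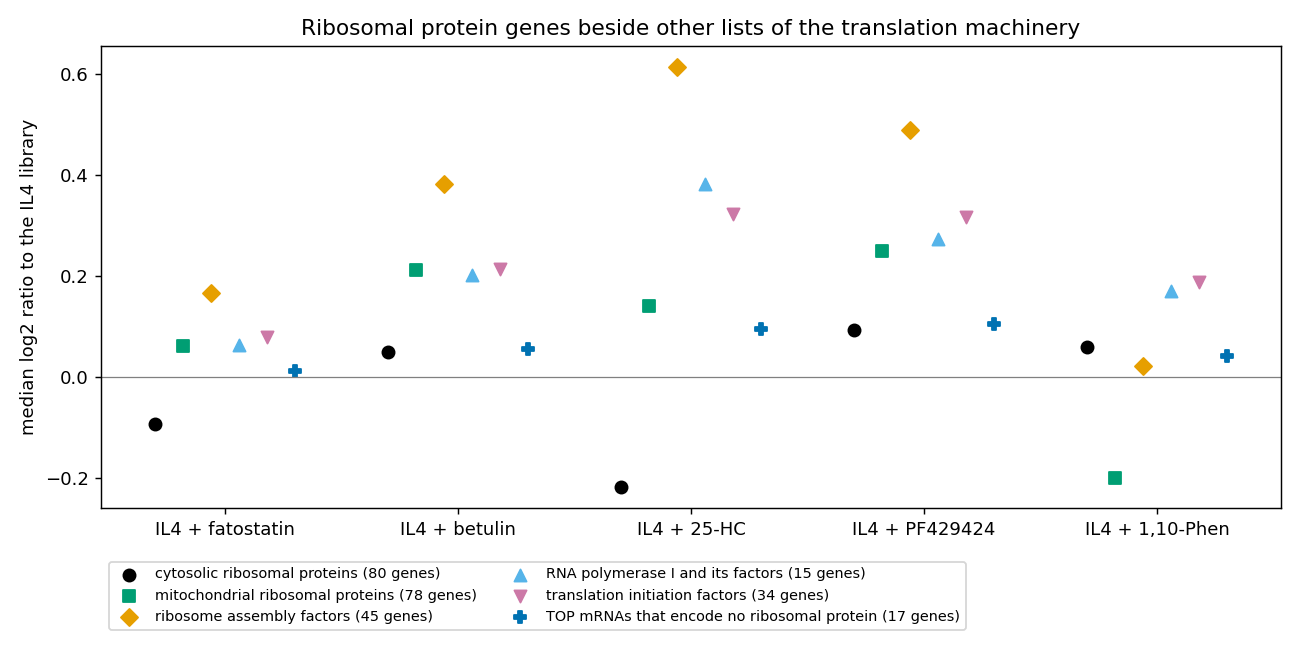
Median log2 ratio to the IL4 library (vertical axis) of the 80 cytosolic ribosomal protein genes and of 5 other lists of the translation machinery in the 5 compound libraries (horizontal axis), under TMM scaling. The black points of the ribosomal protein genes are below the 5 plotted lists with fatostatin (-0.09), betulin (0.05), 25-HC (-0.22) and PF429424 (0.09), narrowly so with betulin and PF429424, and above the mitochondrial ribosomal proteins with 1,10-Phen (0.06 against -0.20).

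The assembly factors had a median of 0.49 with PF429424, with 39 of 45 called higher, against 21.8% of all genes, and 0 lower, against 20.7%. With betulin the median was 0.38, with 37 called higher, against 16.2%, and 0 lower, against 15.9%. With fatostatin it was 0.17, with 5 called higher, close to the 8.44% of all genes, and 0 lower, against 8.64%. With 1,10-Phen their median was 0.02, with 12 called higher, against 28.8%, and 7 lower, against 31.3%, Sbds (0.93) being the highest and Wdr12 (-0.83) the lowest. The 78 mitochondrial ribosomal proteins had medians of 0.06, 0.21, 0.14, 0.25 and -0.20 with fatostatin, betulin, 25-HC, PF429424 and 1,10-Phen. With 1,10-Phen 32 of them were called lower and 5 higher, against 31.3% and 28.8% of all genes, beside 4 lower and 16 higher among the cytosolic members. Under library totals the median of the assembly factors with 1,10-Phen was -0.22, with 2 called higher and 19 lower, and that of the mitochondrial genes -0.44. The median of all genes was then -0.25, and the share of all genes called was not counted. With the other 4 compounds the medians of these lists, of RNA polymerase I and of the initiation factors stayed above 0 under library totals.

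The 17 genes with TOP mRNAs that encode no ribosomal protein had medians of 0.01, 0.05, 0.10, 0.11 and 0.04 with fatostatin, betulin, 25-HC, PF429424 and 1,10-Phen. Under library totals these were -0.04, -0.01, 0.06, -0.03 and -0.20. With 25-HC 1 was called higher and 3 lower, against 24.4% and 23.8% of all genes. Eef1a1, the elongation factor that brings aminoacyl-tRNA, had 143761 counts with IL4 and 120872 with 25-HC (-0.28), and Eef1b2, its exchange factor, was also at -0.28. With 1,10-Phen 5 were called higher and 3 lower, against 28.8% and 31.3% of all genes, and Tpt1 was at 0.63 and Hnrnpa1 at -0.55. Under library totals 1 was called higher and 7 lower there, with no share of all genes counted for that scaling. Of the 9 elongation and termination factors, 3 were called higher and 2 lower with 25-HC, near the 24.4% and 23.8% of all genes.

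Of 21 genes of mTORC1, MYC and the TOP mRNA regulators, 11 were called higher and 6 lower with 1,10-Phen, against 28.8% and 31.3% of all genes. Under library totals 8 were called higher and 8 lower, with no share of all genes counted for that scaling. Eif4ebp1, an inhibitor of cap-dependent translation, had 1099, 1210, 1283, 1570, 1951 and 7100 counts (2.89 with 1,10-Phen). Ddit4, an inhibitor of mTORC1, had 78, 72, 52, 42, 54 and 588 counts (3.08). Pdcd4, an inhibitor of the helicase eIF4A, had 471, 370, 218, 254, 169 and 116 counts (-1.80), highest with IL4 alone. With 25-HC 6 of the 21 were called higher and 5 lower, near the 24.4% and 23.8% of all genes, Pdcd4 being at -0.92 and Ddit4, at 42 counts, at -0.89. Of the 10 genes of ribosome rescue and quality control, 5 were called higher and 0 lower with 25-HC, against 24.4% and 23.8% of all genes.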

How the data were processed

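RNA of 6 libraries, 1 per treatment, had been counted by the authors. The deposited tables give an estimated count (expected count) per gene and FPKM, per the file headers. RSEM 1.2.12, Bowtie2, HISAT2 and DESeq2 are listed, per the submitters' processing notes, with no roles. Whether strand was used is not given. Here, counts were rounded and scaled with TMM factors over all genes (edgeR 4.0.16 in R 4.3.3), and log2 ratios to IL4 used a prior count of 2. A call needed a ratio of at least 1.2-fold and an exact 95% counting interval that excluded no change. Effective lengths were implied by counts and FPKM. FPKM ratios used log2(FPKM + 1). Symbols came from the deposited tables. Gene positions and start windows came from RefSeq tables of GRCm38.p6, and all 80 members had a row with a position. The deposited coordinates are rounded to 3 digits. The RefSeq start rounded to the deposited one for 79. Genes named are the 4 highest and 4 lowest members per comparison, paralog pairs, stalk genes, chosen members and the 2 largest ratios per list, with the exceptions given. The members, lists, rule and alternatives were chosen with earlier results of these data known. The ratio and call rule were tested on simulated counts with counting error only, scaled by library totals. That simulation held no replicate spread and did not use TMM factors, so it cannot speak to either.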

Additional observations from a re-analysis of the deposited data

How the results depend on the processing

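No paired analysis was possible because each treatment has 1 library, and no library could be left out. The 25-HC median stayed negative under every alternative run. With library totals and with log2(FPKM + 1), the median was -0.15 in both for fatostatin, -0.014 and -0.020 for betulin, -0.046 and -0.047 for PF429424, and -0.18 in both for 1,10-Phen. The betulin mean was 0.10. Counts with FPKM, and those against the median of the 6 libraries, used the 1.2-fold limit alone, with no interval. For fatostatin 0 and 10 members were higher and lower with library totals, or 0 and 9 with FPKM. They were 0 and 3 under both for PF429424, and 1 and 24 or 1 and 23 for 1,10-Phen. For betulin 2 were lower under both and with no filter. Against the median of the 6 libraries, 0 were lower with betulin, 1 higher with PF429424 and 10 higher with 1,10-Phen. With no filter 1 was lower with PF429424, and 3 were higher there with DESeq2 size factors, TMM over filtered genes, centring on all genes or whole counts only. Over members with whole counts, 1 was lower with fatostatin, 5 higher and 0 lower with betulin, 0 higher and 14 lower with 25-HC, and 10 higher with 1,10-Phen. Without paralogs 0 were higher with 25-HC. Shares of all genes called were counted only for the main setting, so the counts above are given without a background. Under library totals Rplp0 with PF429424 was at -0.037 and Rpl39 with 1,10-Phen at -0.026. Ratios near 0 also changed sign there, to -0.05 for Rpl10a with betulin, -0.09 for Rpl39 with PF429424 and -0.22 for Rps27 with 1,10-Phen, and within counting error for Rpl38 with fatostatin, Rpl36 with betulin and Rps3 with 25-HC. TMM over filtered genes, centring, whole counts and the named members under library totals, DESeq2 size factors and with copies added were chosen after seeing the data. Of the other values, 161 medians and counts and 96 of the rest stayed within their limits, while 34 of the rest moved. The limits came from counting intervals, except for counts of members, where a set fold change was allowed. That limit was wide. With 25-HC 26 members were lower in the main setting and 38 with library totals or FPKM. With betulin 14 were higher in the main setting and 10 with library totals or FPKM. No share of all genes was counted for these alternatives.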
